A study of Mus musculus with 2 samples.

Results

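The genes described here encode 10 enzymes that make ceramide, turn it into sphingomyelin, or split sphingomyelin again, in 661W, a mouse photoreceptor cell line derived from a retinal tumour transformed with a viral T antigen. They were taken as the non-control spots that the array's annotation assigns to Sptlc1, Sptlc2, Cers2, Cers5, Cers6, Sgms1, Sgms2, Smpd1, Smpd2 or Smpd3. These spots came to 12 probes, 1 per gene except for 2 each in Sptlc2 and Sgms1, among 39429 non-control probes of the array, and all 10 genes were among the 19818 measured on both arrays. A probe was measured when the scanner software called it well above background, and not saturated, on both arrays.

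The series holds 2 arrays, 1 of 661W cells kept for 3 days in DMEM/F12 medium deficient in choline and 1 of cells kept for 3 days in choline-sufficient medium. The labels give 8.98 g/L beside the sufficient medium, without saying of which compound, and 10% fetal bovine serum for routine culture. Total RNA was pooled from 4 dishes, which the design text does not assign to a condition. There was thus 1 array per condition, so no difference below has a replicate check, no test across samples was possible and no p-value is given. Values after ± are errors estimated by the scanner software and propagated over both arrays, and they leave out any variation between cultures. The error of a single gene was 0.20 for each member, as in the median over all measured genes. For the members 2 errors are thus nearly a fixed bound and not a spread measured gene by gene. In bulk RNA, fewer cells of a type and less RNA per cell cannot be told apart.

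On each array 43020 non-control spots were read, of which 70.7% were well above background on the choline-deficient and 68.5% on the choline-sufficient array, with 0 saturated. Levels are log2 processed signals relative to the 75th percentile of the array, and differences are choline-deficient minus choline-sufficient. Over the measured genes the median difference was -0.10, with quartiles of -0.40 and 0.30. Of 16 photoreceptor genes listed as cone markers, not all of them particular to cones, 7 were measured. Neither array had Opn1sw, Crx, Rcvrn, Cngb3 or Grk1 well above background. The photoreceptor label is thus matched by measured signal in only 7 of the 16 cone markers here. The summed signal of the cone markers was 2.07 times the 75th percentile on the choline-deficient and 2.26 times on the choline-sufficient array. Such a sum is led by its brightest genes. Rom1, at -0.28, had the smallest scanner error of those measured and is not particular to cones. Its part in the sum is not given here. Taken singly, 5 of the 7 measured cone markers were above 0, with a median difference of 0.56. At 1.5-fold 3 were higher and 0 lower, against 14.8% and 14.1% of all genes. The probes of Pde6h, Opn1mw, Arr3 and Thrb were dim, with scanner errors of 0.37, 0.24, 0.24 and 0.23 against a median of 0.20. Pde6h and Thrb were among the 3 counted as higher. Another 4 cone markers were well above background on 1 array only. The summed signal of 8 fibroblast markers was 78.0 and 9.54 times, that of 8 Muller glia markers 12.8 and 2.34 times, and that of 7 macrophage and microglia markers 0.249 and 0.213 times. The glial markers did not all follow their sum. Of the 5 measured, 3 were at least 1.5-fold higher, while Glul was at 0.26 and Aqp4 at -0.32. Rlbp1 was well above background on 1 array only. Among these markers Lum, Kcnj10, Sox2 and Tyrobp did not stand well above background on either array. The part of these cell-type markers in the differences below was not tested.

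Sphingolipids are built on a long-chain base. Serine palmitoyltransferase makes that base from serine and palmitoyl-CoA, ceramide synthases join a fatty acid to it, and each ceramide synthase prefers fatty acids of certain lengths. Sphingomyelin synthases then move the phosphocholine head group from phosphatidylcholine to ceramide, so sphingomyelin is, beside phosphatidylcholine, the other major membrane lipid that carries choline. Sphingomyelinases split it back to ceramide and phosphocholine. In the retina, ceramide has been studied chiefly for its link with photoreceptor death.

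The values rest on single oligonucleotides 60 bases long, 1 spot each. The 5′ ends of 7 of them, those of the members farthest apart between the arrays and those of the genes with 2 probes, are shown so that a reader can place the measured stretch of each transcript. Each line gives the first 30 bases, 5′ to 3′ in the sense of the transcript as the array files list them, with no base marked.
Cers2: agaaagctgagctacttttaactttctctt
Cers6: tattaatatctctgtctaatgttctcccaa
Sgms2: taaaatgaagtggaccaaattttatgcaaa
Sgms1, RefSeq transcript probe: aggtttgctcgcctggggttttatacagtc
Sgms1, Ensembl transcript probe: ttataagtgaagtagaagtttgaatagaat
Sptlc2, probe at transcript base 1059: tgccattgtttatggtcagcctcggacaag
Sptlc2, probe at transcript base 3210: caagaagagaggcagtgtcatttgtgaagc
On mouse build mm9, the build in the file headers, the printed Cers2 stretch lies at chr3:95127163-95127192 on the plus strand and the Cers6 stretch at chr2:68948945-68948974 on the plus strand. The Sgms2 stretch lies at chr3:131025901-131025930 on the minus strand. The Sgms1 stretches lie at chr19:32198289-32198318 and chr19:32232776-32232805, and the Sptlc2 stretches at chr12:88683639-88683668 and chr12:88649478-88649507, all on the minus strand. Exon and UTR annotation on mm9 was not used here. Over the full 60 bases the longest run shared by any of the 66 pairs of these 12 probes was 9 bases. No other non-control probe of the array shared a run of 20 bases with any of them, so none of the paralogues was read by a near-identical probe. The probes' GC content ran from 35.0% in Cers2, Cers5, Sptlc1 and Sgms2 to 55.0% in Smpd1 and Smpd2.

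With choline withheld, 2 of the 10 genes, Sgms2 and Cers2, were lower by at least 1.5-fold, 1 gene, Cers6, was higher by at least 1.5-fold, and the other 7 lay between these bounds. Among all measured genes 14.1% were at least 1.5-fold lower and 14.8% at least 1.5-fold higher, so 2 and 1 of 10 are close to the share found over the whole array. The same 3 genes were the only members farther than 2 scanner errors from 0, a distance that 22.6% of all genes passed downward and 19.4% upward. None of the members reached 2-fold, which 3.88% of all genes did downward and 7.67% upward. The members' median difference was -0.15, against -0.10 over all genes. Each of the 4 enzyme families held members on both sides of 0, although the sign of 4 genes turned with the scaling of the arrays (Sptlc1, Sptlc2, Smpd1 and Smpd2).

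**Figure D1:**
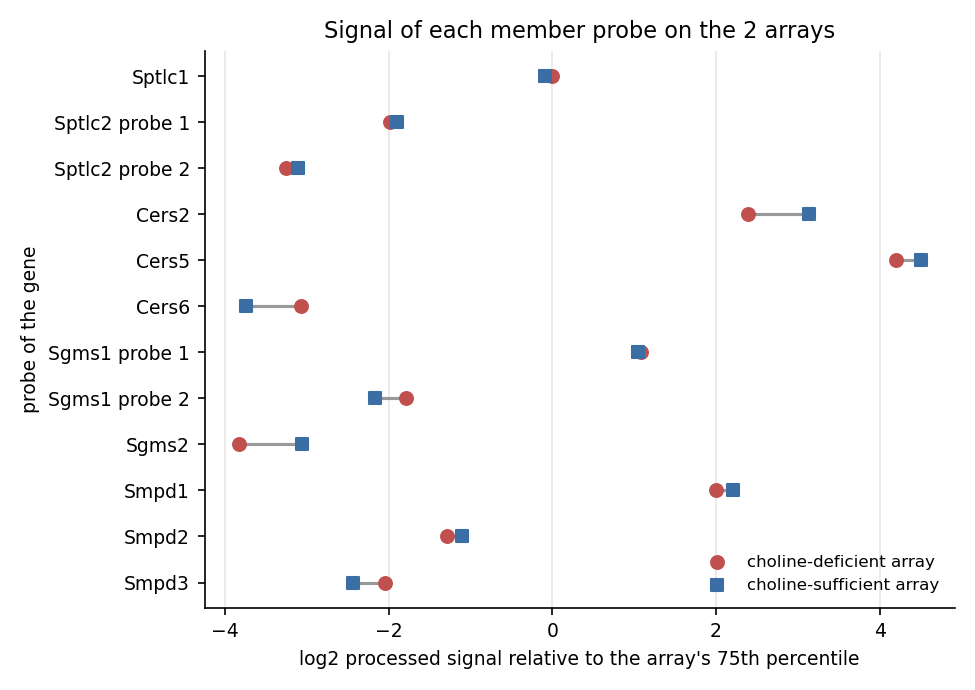
Log2 processed signal of the 12 probes relative to each array's 75th percentile (horizontal axis), with circles for the choline-deficient and squares for the choline-sufficient array and 1 array per condition. The widest gaps are in Cers2 and Sgms2, with the square to the right, and in Cers6, with the circle to the right. Positions of different probes are not comparable as transcript levels.

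Both subunits of serine palmitoyltransferase, the enzyme of the first step, had similar signals on the arrays. For Sptlc1, the subunit that partners the catalytic one, the level was -0.003 on the choline-deficient and -0.09 on the choline-sufficient array. Its difference was 0.09 ± 0.20, and it was -0.03 when the arrays were scaled to their medians. For Sptlc2, which carries the catalytic site, the levels of the probe at transcript base 1059 were -1.99 and -1.90, and those of the probe at base 3210 were -3.26 and -3.11. These 2 probes, 34161 bases apart on the genome, gave -0.09 and -0.14, a gap of 0.06 ± 0.29. The Sptlc2 difference was -0.12 ± 0.20 over both probes, and 0.16 with scaling to spike-in probes. Neither subunit was thus set apart from 0 by the scanner error, and the difference between the subunits was 0.21 ± 0.29.

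The 3 ceramide synthase genes did not share a direction. Cers2, the synthase of very-long-chain ceramides, had a processed signal of 8435 on the choline-deficient and 11211 on the choline-sufficient array, and levels of 2.39 and 3.13. The choline-deficient array was the lower one both before and after scaling. The Cers2 difference was -0.74 ± 0.20, 1.67-fold lower, and 8.46% of all measured genes were at least as far below 0. It stayed below 0 in all 10 alternative settings but was under 1.5-fold with cyclic loess (-0.55), quantile normalization (-0.58) and spike-in scaling (-0.47).

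Cers6, a synthase that favours palmitic acid and so makes C16 ceramide, was higher instead. Its signal was 192 on the choline-deficient and 96.0 on the choline-sufficient array, and its levels were -3.07 and -3.74. The Cers6 difference was 0.67 ± 0.20, 1.59-fold higher, and 12.8% of all measured genes were at least as far above 0. This probe was dim, at 7.38 and 4.00 times its local background, and after normexp background correction the difference was 0.28. It was above 0 in all 9 alternatives that measured it, and also below 1.5-fold with median scaling (0.55) and quantile normalization (0.56).

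Cers5, the other synthase that prefers palmitic acid, had a signal of 29464 on the choline-deficient and 28952 on the choline-sufficient array. Its unscaled signals were thus nearly equal, and its levels of 4.19 and 4.50 differ through the scaling of the arrays. The Cers5 difference was -0.31 ± 0.20, and it lay between -0.07 and -0.03 with quantile normalization, cyclic loess and spike-in scaling. The 2 synthases with the same fatty acid preference therefore had unlike differences.

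A constant scaling of the arrays cancels when the differences of 2 genes are set against each other. Cers6 stood 1.41 ± 0.29 above Cers2 on the log2 scale, a change of 2.66-fold in their ratio between the arrays. This gap lay between 1.12 and 1.41 over the 9 alternatives that gave it. Cers6 stood 0.97 ± 0.29 above Cers5, between 0.56 and 0.97 over the alternatives, the lowest, after normexp, being under 2 of these errors. Cers5 stood 0.44 ± 0.29 above Cers2, which is within 2 errors. The relative signal of Cers6 to Cers2 was thus, in the reported setting, the widest shift among the 8 within-family pairs compared, of which 4 exceeded 2 errors. Several of these pairs share a gene, and the share of all gene pairs that far apart was not computed.

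**Figure D2:**
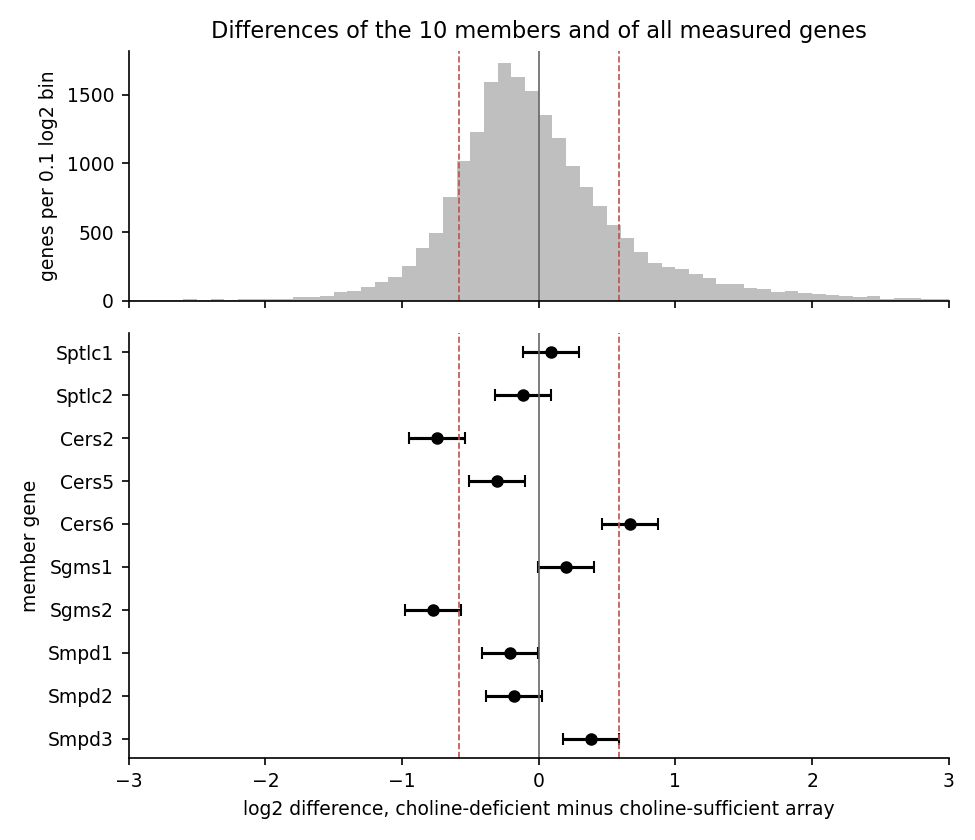
Upper panel, number of measured genes in each 0.1-wide bin of the log2 difference (86 genes beyond 3 in size are not drawn). Lower panel, the difference of each member with its scanner error as the bar, for 1 array per condition, with dashed lines at 1.5-fold. Cers2 at -0.74 and Sgms2 at -0.77 lie left of the lower line and Cers6 at 0.67 right of the upper one, while the signs of Sptlc1, Sptlc2, Smpd1 and Smpd2 turn with the scaling of the arrays.

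The sphingomyelin synthase genes, whose products use phosphatidylcholine as the donor of phosphocholine, also differed from each other. Sgms2, the synthase of the plasma membrane and Golgi, had a signal of 113 on the choline-deficient and 154 on the choline-sufficient array, and levels of -3.83 and -3.06. The choline-deficient array was again the lower one before and after scaling. The Sgms2 difference was -0.77 ± 0.20, 1.71-fold lower, and 7.69% of all measured genes were at least as far below 0. It was below 0 in all 9 alternatives that measured it, from -0.89 to -0.50, the last with spike-in scaling and the only one under 1.5-fold. Its signal was 4.92 and 6.40 times the local background, so this value also rests on a dim probe.

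Sgms1, the synthase of the Golgi, was read by 2 probes. The probe of the RefSeq transcript had levels of 1.08 and 1.05 on the choline-deficient and choline-sufficient array and a difference of 0.03 ± 0.20. The probe of the Ensembl transcript, 34487 bases away, had levels of -1.79 and -2.16 and a difference of 0.37 ± 0.20. Both were above 0, and their gap of 0.34 ± 0.29 is within 2 errors, so the 2 transcripts were not resolved from each other. The Sgms1 difference was 0.20 ± 0.20 over both probes. Sgms1 stood 0.97 ± 0.29 above Sgms2, a change of 1.96-fold in their ratio, and between 0.77 and 1.06 over the alternatives. The ratio of the Golgi synthase to its paralogue was thus shifted toward Sgms1 on the choline-deficient array in each of these settings.

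The sphingomyelinase genes were all within 1.5-fold. Smpd1, the acid sphingomyelinase of the lysosome, had signals of 6450 on the choline-deficient and 5931 on the choline-sufficient array and a scaled difference of -0.21 ± 0.20. Smpd2, a neutral sphingomyelinase, had signals of 661 and 596, levels of -1.28 and -1.10 and a difference of -0.18 ± 0.20. The unscaled signals of both genes were slightly higher on the choline-deficient array, by 1.09-fold and 1.11-fold, and with spike-in scaling their differences were 0.06 and 0.09, so no direction holds for either gene. Smpd3, the neutral sphingomyelinase known for its part in exosome release, had signals of 389 and 238 and levels of -2.05 and -2.43. The Smpd3 difference was 0.38 ± 0.20, above 0 in all 9 alternatives that measured it, and it reached 1.5-fold with spike-in scaling, at 0.65. Smpd3 stood 0.59 ± 0.29 above Smpd1 and 0.56 ± 0.29 above Smpd2, the first just over and the second just under 2 errors. The first gap lay between 0.40 and 0.59 over the alternatives and was under 2 of these errors with quantile normalization, cyclic loess and normexp.

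**Figure D3:**
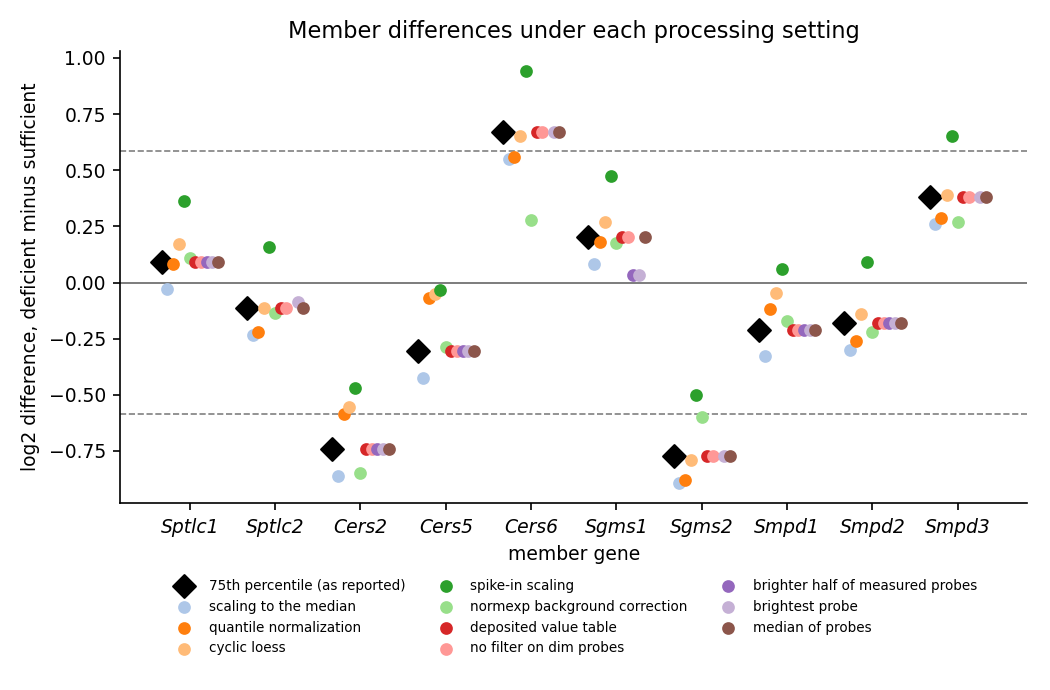
Log2 difference, choline-deficient minus choline-sufficient, of each of the 10 members under the reported setting (diamonds) and 10 alternatives (circles), with 1 array per condition and dashed lines at 1.5-fold. Cers2, Cers5 and Sgms2 stay below 0 and Cers6, Sgms1 and Smpd3 above it where measured, while Sptlc1 turns with median scaling and Sptlc2, Smpd1 and Smpd2 turn with spike-in scaling.

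Another 64 genes, from a list written with earlier results of these arrays known, place the members within the pathway. Most are genes of sphingolipid metabolism or signalling. Some are only relatives of such genes or serve fatty acid elongation more widely, and Zdhhc9 stands on the list without a role in the pathway. Of the 64 genes 53 were measured, 10 were too dim on both arrays to be called well above background and 1, Cers1, had no spot under its symbol. At 1.5-fold 13 of the 53 (24.5%) were higher and 7 (13.2%) lower, against 14.8% and 14.1% of all genes, and their median was 0.003. Of the 4 measured genes for small subunits and regulators of serine palmitoyltransferase, 1 was at least 1.5-fold lower and 0 higher. Beyond 2 errors were 3, 1 above and 2 below 0, against 19.4% and 22.6% of all genes. Ormdl3, one of the proteins that restrain the enzyme, was 1.80-fold lower (-0.85 ± 0.20, and -0.58 with spike-in scaling), its relatives Ormdl2 and Ormdl1 were at -0.50 ± 0.20 and -0.31 ± 0.20, and the small subunit gene Sptssa was at 0.57 ± 0.20. Kdsr, whose enzyme reduces the first product, was read by 8 usable spots of 1 probe, whose SD was 0.03 around a difference of -0.23, an example of how closely repeated spots of 1 array agree.

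Among genes nearest to the ceramide synthases, Fa2h, which hydroxylates the fatty acid that goes into ceramide, was far lower. Its signal was 114 on the choline-deficient and 808 on the choline-sufficient array, and its difference was -3.16 ± 0.20, 8.92-fold lower. Only 0.151% of all measured genes were at least as far below 0. The single Fa2h probe was dim on the choline-deficient array, and its difference was -2.63 after normexp. Cers4 was 1.76-fold and Tecr, of fatty acid elongation, 1.53-fold higher, but these differences of 0.82 and 0.61 were 0.27 after normexp and 0.49 with median scaling. Samd8, the relative of the sphingomyelin synthases that makes ceramide phosphoethanolamine, had signals of 211 and 403 and was 2.40-fold lower (-1.26 ± 0.20), so it stood on the same side as Sgms2. The ceramide transfer protein gene Cert1, which carries ceramide to the Golgi, was at -0.05 ± 0.20. Of the sphingomyelinase relatives Smpdl3b was 2.09-fold, Smpdl3a 2.02-fold and Smpd5 1.67-fold higher. After normexp Smpdl3a was at 0.60 in place of 1.01, and Smpd5, a very dim probe with signals of 15.8 and 7.51, was at -0.06 in place of 0.74.

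The enzymes that lead from ceramide to sphingosine 1-phosphate, a secreted signalling lipid, and the genes that export and receive that lipid had unlike differences. Of the 4 measured genes for ceramidases, which free sphingosine, and ceramide kinase, 0 were 1.5-fold apart and the median was -0.14. Over all genes 14.8% were at least 1.5-fold higher and 14.1% lower. Asah1, Asah2 and Acer3 were at -0.10, 0.05 and -0.18, and Cerk was at -0.54 ± 0.20, with its probes at -0.95 and -0.12. Of the 5 measured genes of sphingosine 1-phosphate metabolism 4 were below 0, with a median of -0.09. Among all measured genes 57.4% were below 0, with a median of -0.10, so the median of this group lay close to that of the whole array. Its single genes spread wider, with 1 of the 5 at least 1.5-fold higher and 2 lower, against the same 14.8% and 14.1%. The 4 measured genes of export and reception had, as reported, the widest differences above 0 in the list, with a median of 1.80. The receptor gene S1pr3 was 4.99-fold higher (signals of 219 and 34.9), the exporter gene Spns2 3.87-fold (856 and 176), S1pr1 3.14-fold (76.3 and 19.3) and S1pr2 2.75-fold (1133 and 327). After normexp the differences of S1pr3 and S1pr1 were 1.40 and 0.51 in place of 2.32 and 1.65. Neither S1pr4 nor S1pr5 was well above background. Of the kinases that make this lipid, Sphk1 was 2.66-fold higher, with its probes at 1.38 and 1.44, and Sphk2 was 1.81-fold lower, at -0.85, and at -0.58 with spike-in scaling. Sgpl1, the lyase that destroys it, was 1.53-fold lower, a difference of -0.62 that was -0.35 with spike-in scaling and -0.42 with cyclic loess. In the glycosphingolipid branch the ganglioside synthase gene St3gal5 was 2.52-fold and the lysosomal galactosidase gene Glb1 1.76-fold higher, while Hexa was 2.04-fold and the sialidase gene Neu1 1.56-fold lower. The Neu1 difference of -0.64 was -0.37 with spike-in scaling and -0.49 with cyclic loess. Zdhhc9, one of the 13 genes counted as higher, was 1.73-fold higher, at 0.79, and at 0.48 after normexp. The summed fibroblast and glial marker signals given above were higher on the same array as the receptor genes. Any link between them was not tested.

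**Figure D4:**
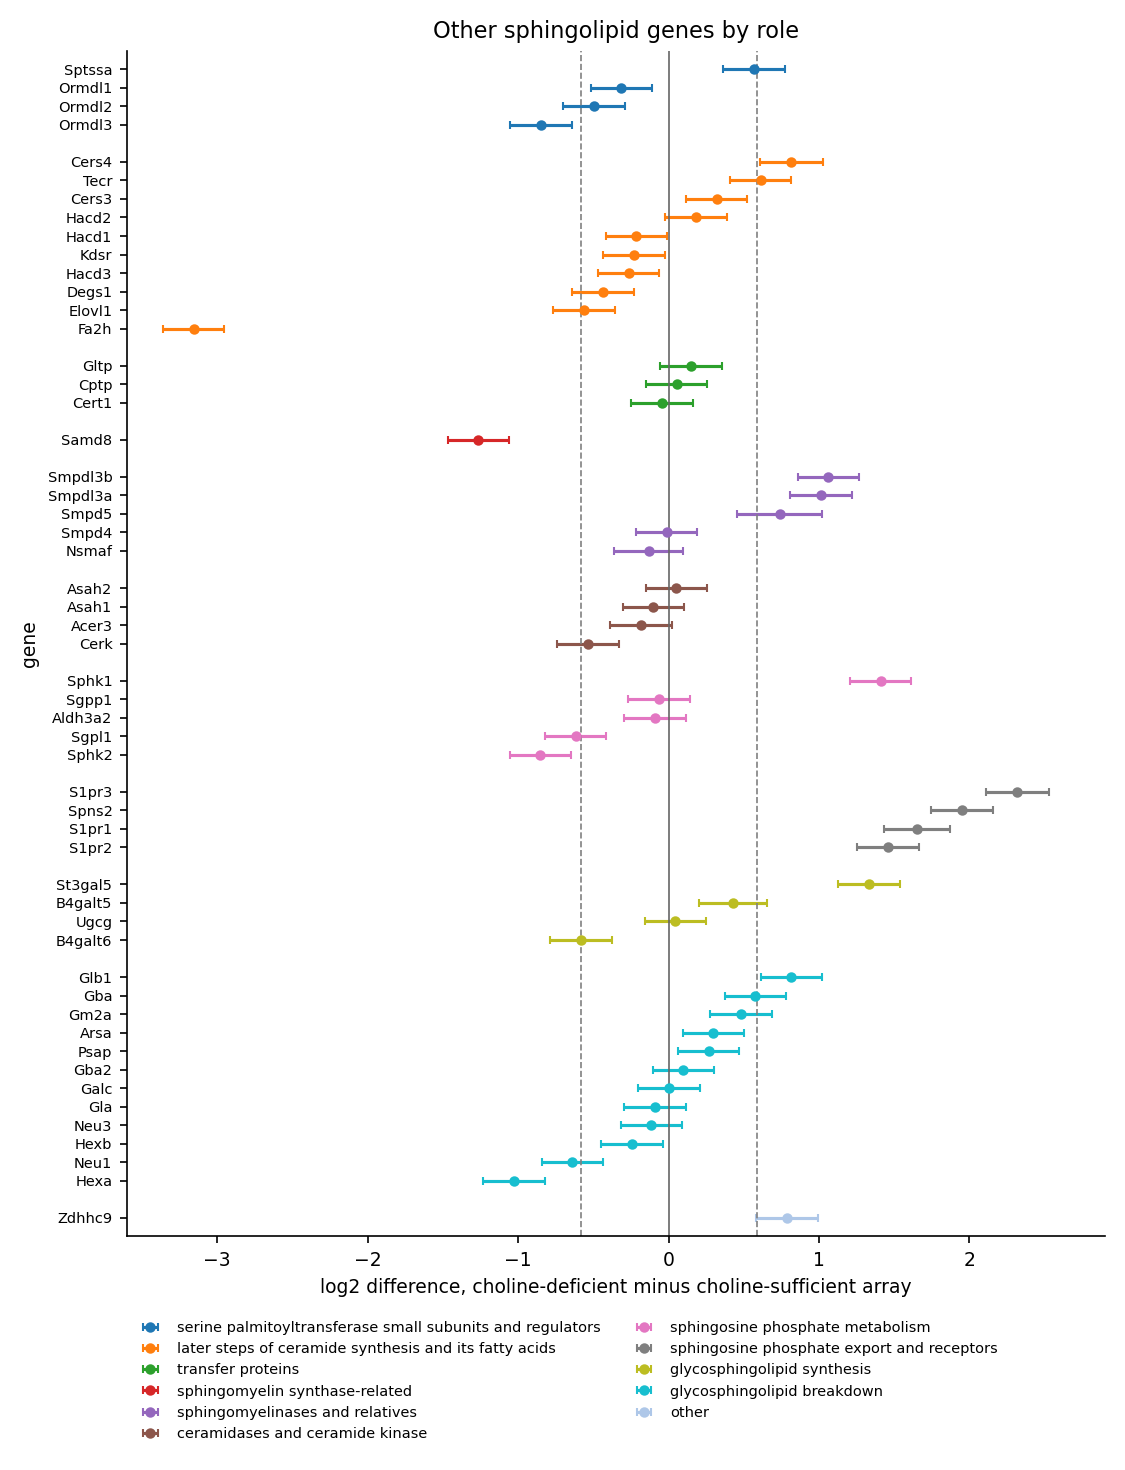
Log2 difference, choline-deficient minus choline-sufficient, of the 53 measured genes of the wider sphingolipid list, grouped by role (colours), with the scanner error as the bar, 1 array per condition and dashed lines at 1.5-fold. Fa2h at -3.16 is farthest to the left, and the 4 measured genes of sphingosine 1-phosphate export and reception lie between 1.46 and 2.32.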

How the data were processed

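Total RNA (200 ng per sample) was labelled with Cy3 and hybridised to Agilent 1-colour arrays, per the labels' protocols. The deposited scanner files hold intensity values per spot, which, per the submitters' processing notes, the authors obtained with version 12.1.1.1 of Agilent's Feature Extraction. Per the file headers these were corrected for background and spatial trend inside each array, and arrays were not normalized to each other. In the deposited value table each entry is a ratio of this signal to a number fixed for the array, 1609 or 1280 by comparison with the scanner values, close to the 75th percentiles.

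Log2 signals were centred on the 75th percentile of each array's non-control spots. Outlier and control spots were dropped, spots averaged per probe and measured probes averaged per gene (Python 3.11.15, pandas 2.3.3, numpy 2.4.6). Normexp (offset 50), quantile and cyclic loess alternatives used limma 3.58.1 in R 4.3.3. Spike-in scaling used the 5 brightest unsaturated spike-in probes. The scanner error was not divided by the number of probes, which share its floor. Over 276 measured probes with at least 8 spots, repeated spots scattered around the difference with a median SD of 0.05. The scripts were tested on simulated data. The number of arrays limits the precision. Accessions of 11 of the 12 member probes were found in a RefSeq gene table, all under the same symbol. All 10 members, every gene of the wider list at least 1.5-fold apart and a few others chosen after their values were seen (Sptssa, Ormdl1, Ormdl2, Kdsr, Cert1, Asah1, Asah2, Acer3, Cerk) are named. The members and lists were chosen with earlier results of these data known.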

Additional observations from a re-analysis of the deposited data

How the results depend on the processing

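With 1 array per condition, no difference of any size can be told from variation between cultures. Differences below about 2 scanner errors do not stand apart from the scanner error either. Dim probes such as those of Cers6 and Sgms2 depend most on the background correction. Median scaling shifted the median over all genes by -0.12 and spike-in scaling by 0.27, the same shift for every gene. The members' median turned from -0.15 to 0.12 with spike-in scaling, and that of the wider list was then 0.27. Members at least 1.5-fold higher were 1 as reported, 2 with spike-in scaling and 0 with median scaling, quantile normalization, normexp, the brighter of the measured probes (6 members measured) and a 2-fold bound. Members at least 1.5-fold lower were 2 as reported, 1 with quantile normalization, cyclic loess and the brighter probes, and 0 with spike-in scaling and a 2-fold bound. Genes of the wider list at least 1.5-fold higher were 13 as reported, 7 with the brighter probes (39 measured) and 8 at 2-fold. Those lower were 7 as reported, 11 with median scaling, no filter and the brightest probe, and 3 with spike-in scaling and at 2-fold. Beyond 2 errors 12 were lower, a distance that 22.6% of all genes passed downward. Other counts stayed within 1.5 times. Over all genes, 14.8% were at least 1.5-fold higher and 14.1% lower as reported, 12.0% and 20.3% with median scaling, 8.42% and 10.3% with normexp and 24.2% and 5.96% with spike-in scaling. No called member changed sign. No paired analysis was possible because each condition has 1 array.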
